A study of Rattus norvegicus with 18 samples.

Results

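The arrays described here hold the RNA of primary rat cortical neurons that carried the control lentivirus and were harvested on day 5 and on day 9 of culture. They are 6 of the 18 first-run arrays of the series, 3 for each day (replicates a, b and c), and were chosen by their labels alone. The neurons came from embryonic rat cortex and were infected for 6 hours on day 1 with a pLKO.1 lentivirus, packaged in HEK-293T cells (a human kidney line used to make virus). The control virus carried a scrambled shRNA. The other arrays are control cultures at day 12 and cultures that had received a CHD5 shRNA virus at days 5, 9 and 12, again 3 of each. CHD5 is a brain-enriched chromatin remodeling ATPase, and it was not targeted in the control cultures. The comparison of day 9 with day 5 asks how gene expression in the cultures with the control virus moved over the 4 days in between. The sources used here do not say whether the replicates came from separate dissections, so p-values measure the spread between these samples, which may be technical. Precision is limited by having 3 arrays a group, and an exact permutation test of 3 against 3 cannot give a p below 0.1, so the p-values here come from limma fits over all 18 arrays.

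Cortical neurons plated from the embryo extend neurites, form synapses and become electrically active over the first weeks in a dish. Cells of the glial lineages that are plated with them keep dividing and differentiating, first into astrocytes, which take up glutamate and potassium and supply lipid, and into oligodendrocyte precursors. Genes of neuronal activity, such as Fos and the Nr4a receptors, are switched on within minutes of calcium entry and signalling through CREB, and are switched off again soon after.

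Of 22523 probes, 10870 were detected (detection p-value of at most 0.02 against the negative control beads) on at least 1 of the 6 arrays and were kept. Signals are given as log2 signals brought to the same mean and spread on each array, and a change is the day 9 mean minus the day 5 mean on that scale. No background was subtracted from the deposited signals, so changes of dim probes are understated. The day 9 array of replicate b was weak. Its mean signal was 134.8, with 7047 detected probes, against mean signals of 434.2 to 789.3 and 8586 to 9931 detected probes on the other 5 arrays. It correlated by 0.901 to 0.952 with them, and they correlated by 0.972 to 0.994 among themselves. Its log2 signals had an SD of 1.11 before scaling, against 1.80 to 2.01. Scaling to an SD of 1.75 widened its spread, so its bright probes, and linear sums of them, lie high after scaling. The comparison was therefore repeated without this array, on 10672 kept probes. The counts for each gene list are given for both fits. A gene said below to have risen or fallen was called in the same direction without it, unless its value there is given as not called. The neuron markers Tubb3, Snap25, Syt1, Rbfox3, Map2, Stmn2 and Nefl were all measured. Their mean level was 10.40 to 10.57 on the day 5 arrays and 10.31, 10.59 and 10.32 in replicates a, b and c at day 9. Their summed level on the linear scale was 16300 to 18800 at day 5 and 16400, 40400 and 17800 in replicates a, b and c at day 9.

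Between day 5 and day 9, 1027 probes rose (9.45% of those tested) and 1420 fell (13.1%) in the limma fit at an adjusted p under 0.05. Without day 9 replicate b, 1175 rose (11.0%) and 1103 fell (10.3%). Both fits called 1761 probes, 811 higher and 950 lower, and each had the same direction in both. These were 72.0% of the calls on all arrays and 77.3% of those without replicate b. The number of calls moved most with another array, and was 4906 without day 9 replicate a. It was 269 where the spread was estimated from the 6 arrays alone, 68.0% of them higher. The median change over all probes was 0.01, and -0.02 without replicate b. Of the 12 genes chosen for the largest rises, 5 were on the list of astrocyte markers. Of the 12 chosen for the largest falls, 5 were on the list of immediate early genes. The lists were chosen with earlier results of these data known, so this overlap is no test of them.

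**Figure D1:**
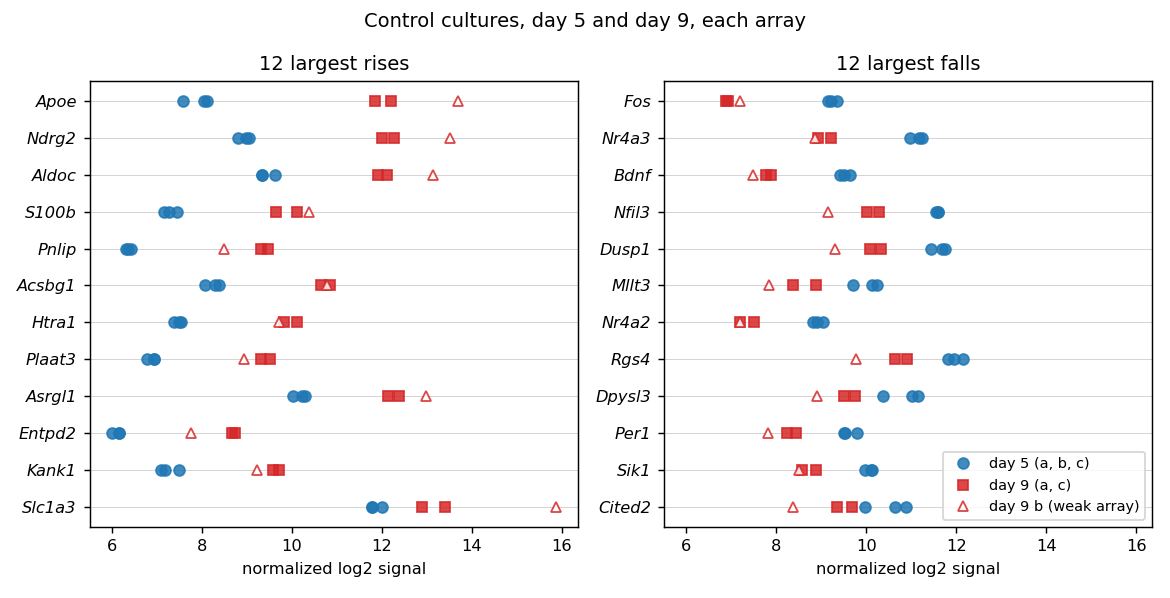
Normalized log2 signal of each control array for the 12 genes with the largest rise (left) and the 12 with the largest fall (right) among probes called with and without day 9 replicate b. Circles are day 5, squares day 9 replicates a and c, and open triangles day 9 replicate b. By the rule that chose these genes the days do not overlap, and replicate b is the farthest of the day 9 arrays from day 5 for Apoe (13.68) but the nearest for Pnlip (8.50).

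Apoe, the lipid carrier that astrocytes secrete, had the largest rise. Its level was 8.06, 8.12 and 7.59 in replicates a, b and c at day 5 and 11.84, 13.68 and 12.21 at day 9. The day 9 arrays all lay above the day 5 arrays, and the weak array was the highest after scaling. Its deposited signal for Apoe was the lowest of day 9, at 1351 against 5656 and 4850 in replicates a and c. The change was 4.66 (SE 0.30, adjusted p 9.51e-09), or 25.3-fold on the normalized scale, and 4.41 without replicate b. Ndrg2, an astrocyte protein of the NDRG family, was at 8.80, 9.05 and 8.98 at day 5 and at 12.00, 13.52 and 12.27 at day 9, a change of 3.65 (SE 0.25, adjusted p 1.82e-08). Without replicate b it rose by 3.42. Aldoc, the aldolase of astrocytes, rose from 9.34, 9.33 and 9.63 to 11.92, 13.14 and 12.11, by 2.96 (adjusted p 4.42e-08). S100b, a calcium-binding protein of astrocytes, rose from 7.17, 7.27 and 7.46 to 9.65, 10.39 and 10.12, by 2.75 (adjusted p 1.16e-09). For both genes the change without replicate b was 2.77.

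The other 8 of the 12 largest rises lay between 2.20 and 2.72. Slc1a3, the glutamate transporter GLAST, was the gene among them in which the weak array weighed most. Its level was 11.78, 11.79 and 12.00 at day 5 and 12.90, 15.86 and 13.40 at day 9, so that the change was 2.20 with and 1.39 without replicate b (adjusted p 0.00191 and 2.77e-07). The SD of its arrays was 0.12 at day 5 and 1.59 at day 9. Its SE of 0.45 with replicate b rests on the spread within all 6 groups of arrays. Acsbg1, an acyl-CoA synthetase, rose by 2.51, and Asrgl1, an asparaginase, by 2.31. Htra1, a secreted serine protease, was at 7.49, 7.38 and 7.54 at day 5 and at 9.82, 9.72 and 10.12 at day 9. Its change of 2.42 (SE 0.11, adjusted p 3.35e-10) was larger than the spread of its replicates. Plaat3, a phospholipase, rose by 2.38 and Kank1, a regulator of actin, by 2.26. Pnlip, a lipase best known from the pancreas, and Entpd2, an ecto-enzyme that hydrolyses ATP, were detected on 0 of 3 arrays at day 5 and on 3 of 3 at day 9. With the detection floor of each array in place of the day 5 signals where that was higher, they were at least 5.99-fold and at least 3.68-fold higher at day 9. The measured means were 6.38 and 9.10 for Pnlip and 6.11 and 8.39 for Entpd2.

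Of 32 listed astrocyte markers, 29 had a probe and 28 were measured. At day 9, 23 of the 28 were higher, 0 lower and 5 not called, beside 9.45% of all probes called higher and 13.1% lower. The median change of the 28 was 1.82, beside 0.01 over all probes. Without replicate b, 24 were higher and the median was 1.46. The 23 include Aqp4 and Sox9, which were detected on 0 of 3 arrays at day 5. Sox9 was detected on 2 of 3 at day 9, with measured means of 6.39 and 6.93. Gfap, the intermediate filament of astrocytes, was at 7.98, 7.78 and 7.98 at day 5 and at 10.10, 9.97 and 10.02 at day 9. It rose by 2.11 (SE 0.21, adjusted p 1.86e-06), or by 4.33-fold, and its 3 day 9 arrays lay within a range narrower than those of the genes above. Aqp4, the water channel of astrocyte endfeet, was at least 3.20-fold higher at day 9, with measured means of 6.28 and 8.19. Gja1 (connexin 43) rose by 2.02 and Mlc1, a membrane protein of endfeet, by 2.10. The 5 members that were not called were Fabp7 (1.85, and 0.36 without replicate b), Slc4a4 (0.38, and 0.50 and called without it), Id3 (0.17), Acsl6 (-0.06) and Vim (-0.44). The summed level of the 28 members, on the linear scale, was 37100 to 46900 on the day 5 arrays and 75100, 798000 and 105000 in replicates a, b and c of day 9. Such a sum weighs bright probes most, and scaling had moved those of replicate b up. The mean log2 level of the 28 was 8.62 to 8.68 on the day 5 arrays and 9.98, 10.61 and 10.07 on those of day 9. In RNA from whole cultures, fewer cells of a type and less RNA per cell cannot be told apart, nor can more cells and more RNA per cell.

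Factors of the NFI family bind the letters TTGGCA, a short NFI site, and are known for their part in astrocyte differentiation. The 250 bases before the transcription start in RefSeq (GRCr8) were available for 20 of the 23 astrocyte markers that rose. Read on both strands, this NFI site was in 5 of the 20, and in 12.0% of all 33469 promoters of the same length. They were Apoe, S100b, Slc1a3, Mlc1 and Mt1. The promoters of the first 3, which are among the largest rises, are shown 5′ to 3′ along the gene's own strand, with the NFI site in capitals (TGCCAA where it lies on the other strand).
Apoe, chr1:88485817-88486066, minus strand: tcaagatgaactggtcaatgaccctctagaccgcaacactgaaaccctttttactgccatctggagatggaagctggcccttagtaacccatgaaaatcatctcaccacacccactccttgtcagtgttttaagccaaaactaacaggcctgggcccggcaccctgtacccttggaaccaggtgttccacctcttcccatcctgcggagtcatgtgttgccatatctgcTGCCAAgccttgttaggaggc
S100b, chr20:12381082-12381331, minus strand: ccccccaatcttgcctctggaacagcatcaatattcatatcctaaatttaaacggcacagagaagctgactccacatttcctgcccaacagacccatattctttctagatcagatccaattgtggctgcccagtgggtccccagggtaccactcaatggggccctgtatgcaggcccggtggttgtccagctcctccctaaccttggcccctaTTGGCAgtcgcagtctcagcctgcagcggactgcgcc
Slc1a3, chr2:59557809-59558058, minus strand: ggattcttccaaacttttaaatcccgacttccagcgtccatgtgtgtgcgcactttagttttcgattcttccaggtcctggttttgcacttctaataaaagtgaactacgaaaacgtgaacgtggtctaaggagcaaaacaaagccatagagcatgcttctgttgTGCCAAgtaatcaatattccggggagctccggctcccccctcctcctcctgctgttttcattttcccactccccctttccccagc
Of all 25 measured astrocyte markers with a promoter, the same 5 held the site. The NFI site begins 21 bases before the start in Apoe, 37 in S100b and 85 in Slc1a3. Such a match is a run of letters and was not tested as a binding site. Nfia itself, which encodes a factor that binds this site, was at 10.66, 10.73 and 10.21 at day 5 and at 10.64, 9.56 and 10.54 at day 9 and was not called (change -0.29, adjusted p 0.303, and 0.06 without replicate b).

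Genes of the oligodendrocyte lineage were higher at day 9 as well. Of 19 listed genes with a probe, 12 were measured and 11 of these rose, beside 9.45% of all probes. The median change of the 12 was 0.87. Without replicate b, 10 rose, with a median of 0.67. Bcas1, a gene of newly forming oligodendrocytes, was at 9.16, 9.27 and 9.23 at day 5 and at 11.27, 11.08 and 11.23 at day 9, with no overlap between the days. It rose by 1.98 (SE 0.12, adjusted p 6.87e-09). Pdgfra, the growth factor receptor of the precursors, was at 7.20, 7.45 and 7.24 at day 5 and at 9.27, 8.73 and 9.02 at day 9 and rose by 1.71 (adjusted p 9.51e-09). Cnp, an enzyme of myelinating cells, rose by 1.57. Mbp, a protein of compact myelin, was detected on 0 of 3 arrays at day 5 and on 2 at day 9. Its measured means were 6.42 and 6.83, near the detection floor, and its change was not called without replicate b (0.27, adjusted p 0.117). Ermn was not called (0.35). Mog and Mag, proteins of mature myelin, were detected on none of the 6 arrays. The summed linear level of the 12 genes was 7270 to 8760 at day 5 and 14200, 33100 and 16000 at day 9.

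Markers of the other cell types that such cultures can hold were mostly at background. Of 16 microglia and macrophage markers with a probe, 13 were detected on none of the 6 arrays, among them Cx3cr1, Itgam and C1qa. Of the other 3, Aif1 was detected on 1 of the 6 arrays, and Cd68 was not called (0.25, adjusted p 0.19). Of 12 endothelial and pericyte markers, 11 were not detected. Cldn5 was measured and was not called (0.13). Of 20 fibroblast and meningeal markers, 13 were measured, with a median change of 0.12. On all arrays 3 rose and 1 fell, beside 9.45% and 13.1% of all probes. Without replicate b, 3 of 12 rose and 1 fell, and 2 rises and 0 falls were called in both fits. The 3 rises on all arrays were Pdgfra, Igf2 (0.31, and 0.21 and not called without replicate b) and Igfbp2, a growth factor binding protein that rose by 1.16. Igf2 was detected on 1 of 3 arrays on either day, with measured means of 6.35 and 6.66, near the detection floor. Lox, the collagen cross-linking enzyme, fell by 0.54 and was not called without replicate b (-0.37, adjusted p 0.183). Col1a2, a collagen chain, was at 8.49, 8.86 and 8.32 at day 5 and at 8.66, 7.99 and 8.14 at day 9, and the days overlapped. The summed linear level of the 13 was 5280 to 6540 at day 5 and 8110, 14700 and 9690 in replicates a, b and c at day 9. Bright probes weigh most in such a sum, and Igfbp2 had mean levels of 11.79 and 12.95 on the 2 days. The mean log2 level of the 13 was 7.49 to 7.68 at day 5 and 7.76, 7.90 and 7.78 at day 9. Among the 7 neuron markers, Tubb3 (-0.49), Map2 (-0.62) and Nefl (-0.43) fell and 0 rose. How far a change in the mix of cells moved other genes was not tested.

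The largest falls held genes that neuronal activity induces. Fos, the AP-1 subunit, was at 9.16, 9.22 and 9.35 at day 5 and at 6.93, 7.19 and 6.88 at day 9, with no overlap. It fell by 2.24 (SE 0.31, adjusted p 6.08e-05), or 4.73-fold, and was detected on 2 of the 3 day 9 arrays. Nr4a3, an orphan nuclear receptor, went from 11.23, 11.18 and 10.96 to 9.21, 8.86 and 8.94 and fell by 2.12 (adjusted p 1.32e-08). Its relative Nr4a2 fell by 1.62 (adjusted p 2.69e-08). Bdnf, a neurotrophin whose transcription follows calcium entry, was at 9.65, 9.42 and 9.50 at day 5 and at 7.89, 7.50 and 7.78 at day 9, and it fell by 1.80 (SE 0.13, adjusted p 2.11e-08). Without replicate b the changes of Fos, Nr4a3, Nr4a2 and Bdnf were -2.50, -2.20, -1.68 and -1.81. Dusp1, a phosphatase that switches off MAP kinases, fell by 1.71, and Nfil3, a leucine zipper repressor, by 1.77. Also among the 12 largest falls were Sik1 (-1.42), a kinase that acts back on CREB coactivators, and Per1 (-1.45), a clock gene that CREB induces. Rgs4 (-1.53) limits signalling of G proteins, and Cited2 (-1.36) binds the coactivators CBP and p300. Mllt3 (-1.65) belongs to elongation complexes, and Dpysl3 (-1.46) acts in growth cones. Of the 12, Cited2 and Dpysl3 had the widest spread between the day 5 arrays, with SDs of 0.47 and 0.42.

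Of 29 immediate early genes with a probe, 24 were measured. At day 9, 13 of these were lower, 2 higher and 9 not called, beside 13.1% of all probes called lower and 9.45% higher. The median change of the 24 was -0.61. The counts were the same without replicate b, and the median was -0.58. Npas4, the activity factor of neurons, was detected on 3 of 3 arrays at day 5 and on 0 of 3 at day 9 and was at least 1.71-fold lower at day 9 (measured means 7.56 and 6.33). The other members that fell included Junb (-1.01), Egr1 (-0.74), Egr2 (-0.66), Klf4 (-0.70) and Dusp6 (-0.69). The 2 that rose were Jun (0.43, adjusted p 0.00832) and Ptgs2 (0.30). Arc, whose mRNA is carried into dendrites, was not called (0.18). Fosb, Nr4a1, Egr3, Egr4 and Atf3 were detected on none of the 6 arrays.

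CREB binds the palindrome TGACGTCA. Promoters of 250 bases were available for 11 of the 13 immediate early genes that fell, and 2 of them, Dusp1 and Ier2, held the palindrome, which was in 1.59% of all promoters. Of the 18 measured members with a promoter 4 held it, and the other 2, Jund (0.30) and Btg2 (-0.15), were not called. Ier2, an early response protein chosen here for its promoter after its values were seen, fell by 0.71. Both promoters are shown 5′ to 3′ (GRCr8) with the palindrome in capitals.
Dusp1, chr10:17184603-17184852, plus strand: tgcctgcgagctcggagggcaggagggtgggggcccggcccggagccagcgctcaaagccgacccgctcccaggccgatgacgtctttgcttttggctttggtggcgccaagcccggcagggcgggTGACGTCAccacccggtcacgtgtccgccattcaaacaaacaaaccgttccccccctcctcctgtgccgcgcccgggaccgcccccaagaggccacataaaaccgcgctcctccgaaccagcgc
Ier2, chr19:40399123-40399372, plus strand: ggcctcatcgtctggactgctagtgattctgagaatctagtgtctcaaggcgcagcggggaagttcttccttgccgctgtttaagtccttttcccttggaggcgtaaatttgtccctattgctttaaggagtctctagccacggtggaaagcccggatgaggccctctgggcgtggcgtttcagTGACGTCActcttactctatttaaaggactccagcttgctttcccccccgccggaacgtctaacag
The palindrome begins 124 bases before the start in Dusp1 and 66 in Ier2. Fos and Nr4a3 had no promoter entry.

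Transcription factors of cortical neurons were lower at day 9. Of 25 measured, 14 fell, 0 rose and 11 were not called, beside 13.1% of all probes called lower and 9.45% higher. The median change of the 25 was -0.52. Without replicate b, 12 fell and 2 rose, with a median of -0.42. Satb1, a chromatin organizer, went from 10.77, 10.91 and 10.89 to 9.88, 9.69 and 9.72, with no overlap, and fell by 1.09 (adjusted p 3.16e-07). Fezf2, which specifies deep layer neurons, fell by 1.02 and Neurod6, a factor of pyramidal neurons, by 1.17. Neurod2 fell by 0.58. Neurod1 fell by 0.45 on all arrays, its days overlapped, and without replicate b it was not called (-0.25, adjusted p 0.129). Id2, an inhibitor of such factors, was not called (-0.03).

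Genes of neurite growth in young neurons fell in part. Of 36 measured, 14 fell, 1 rose (Dpysl4) and 21 were not called, beside 13.1% of all probes called lower and 9.45% higher. Without replicate b, 18 fell and 2 rose. Sox11 and its relative Sox4, factors of newborn neurons, fell by 1.12 and 0.96. Igfbpl1 fell by 1.15 (from 9.68, 9.90 and 10.13 to 8.94, 8.24 and 9.09), and Nrp1, the semaphorin receptor, by 1.02. In some bright members the weak array lay far above the others. Gap43, a protein of growth cones, was at 13.88, 14.49 and 14.49 at day 5 and at 14.18, 17.14 and 14.55 at day 9, a change of 1.00 that was not called (adjusted p 0.122) and was 0.08 without replicate b. Tuba1a, the tubulin of growing neurites, differed by 2.05 with and 0.37 without it, and Stmn2 by 0.80 and 0.09. None of the 3 was called in either fit.

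**Figure D2:**
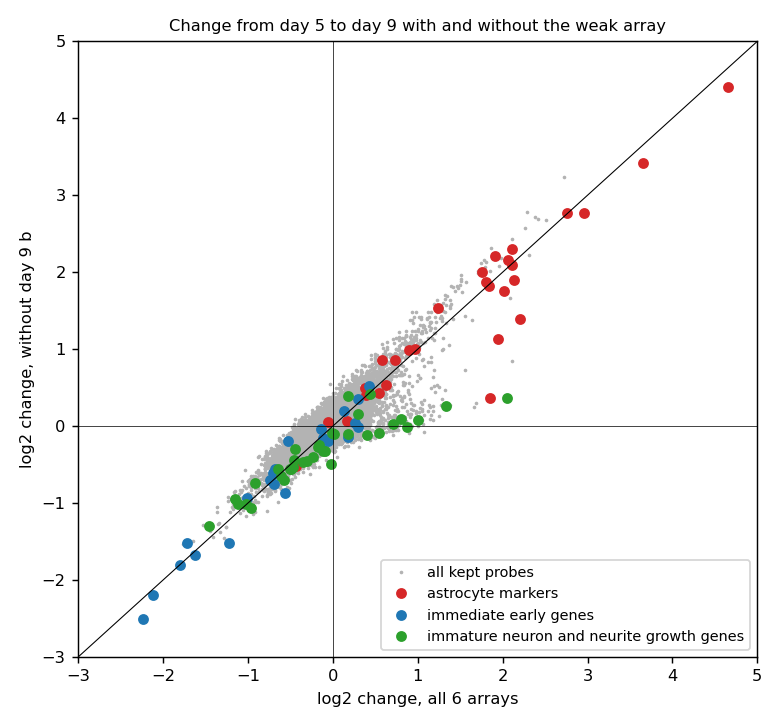
Change from day 5 to day 9 (log2) for each probe kept in both fits, on all 6 arrays (horizontal axis) and without day 9 replicate b (vertical axis), with 3 gene lists in colour and the line of equal change. Most probes lie along the line, and some probes, such as Tuba1a (2.05 and 0.37) and Fabp7 (1.85 and 0.36), lie below it.

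Neuropeptides and proteins of secretory granules moved both ways. Of 23 measured, 10 fell and 5 rose, with and without replicate b, beside 13.1% and 9.45% of all probes on all arrays. Besides Bdnf, the falls included Crh, the corticotropin-releasing hormone, which was detected on 3 of 3 arrays at day 5 and on 0 of 3 at day 9 and was at least 2.01-fold lower at day 9 (measured means 7.80 and 6.52). Cartpt, a peptide of the appetite circuits that is also made in cortex, was at 9.06, 8.77 and 8.55 at day 5 and at 7.75, 7.47 and 7.38 at day 9 and fell by 1.26 (adjusted p 4.12e-05). Nts (neurotensin) fell by 1.07. Among the secretory proteins, Scg2 fell by 0.68, and Vgf, detected on 0 of 3 arrays at day 9, was at least 1.44-fold lower. Vip, a peptide of interneurons, rose by 0.98 (SE 0.28, adjusted p 0.0186) and by 1.48 without replicate b. Its replicates were spread out, at 7.95, 7.33 and 7.04 and then at 9.07, 7.63 and 8.58, and the days overlapped. Npy was at 11.37, 11.40 and 11.57 and then at 11.75, 12.19 and 11.75 and rose by 0.45 (adjusted p 0.0105). Under median centring Npy changed by -0.15.

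Among 22 measured interneuron genes, 7 rose and 3 fell, and 7 and 2 without replicate b. The 3 falls were near the 13.1% of all probes called lower, and 9.45% of all probes were called higher. Gad1, the main enzyme of GABA synthesis, was at 11.43, 11.65 and 11.53 at day 5 and at 12.28, 13.08 and 12.40 at day 9 and rose by 1.04 (SE 0.15, adjusted p 6.78e-05). Gad2, the second such enzyme, was not called (0.14). Cort (cortistatin) fell by 0.71. Dlx1, a factor that specifies these cells, was at 10.23, 10.03 and 10.00 and then at 10.46, 9.65 and 10.37 and was not called (0.07).

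Genes of the synapse and of excitability were for the most part not called. Of 37 genes of synaptic vesicles and release, 5 rose and 5 fell, and 5 and 4 without replicate b. Syn1 was not called (-0.03), and Syn2, the second synapsin, rose by 0.59. Syt4, a vesicle protein that activity induces, fell by 0.77. Sv2b rose by 1.23, and by 0.53 without replicate b. Rab3a and Rims1, which act in vesicle docking, fell by 0.69 and 0.62 and were not called without it (adjusted p 0.0683 and 0.098). Of 28 genes of the postsynaptic density, 0 rose and 2 fell, Dlgap4 (-0.77, and -0.51 without replicate b) and Homer2 (-0.53, and -0.32 without replicate b, adjusted p 0.19). Without replicate b, 2 rose and 3 fell. Dlg4, which encodes the scaffold PSD-95, was not called (0.18). Over all probes, 9.45% were called higher and 13.1% lower.

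Of 17 glutamate receptor genes measured, 5 fell and 2 rose (beside 13.1% and 9.45% of all probes), and 4 and 3 without replicate b. Only 1 fall was called without day 5 replicate b, and 1 without day 5 replicate c. Grin1, the obligatory NMDA receptor subunit, was at 9.53, 9.45 and 9.56 at day 5 and at 9.23, 8.67 and 8.99 at day 9 and fell by 0.55 (adjusted p 0.00319). Grin2b, the NMDA subunit of young neurons, fell by 0.71 although its days overlapped, and Grin2a, that of older neurons, was not called (-0.10). Gria2, the AMPA subunit that limits calcium entry, rose by 0.38. Cnih2, an AMPA receptor partner, fell by 0.78 and was not called without replicate b (-0.37, adjusted p 0.189). Of 14 GABA and glycine receptor genes, 3 fell and 2 rose, and 2 and 2 without replicate b. Gabra5, a subunit of extrasynaptic receptors, was at 10.75, 10.49 and 9.98 and then at 9.68, 8.83 and 9.36 and fell by 1.12 (adjusted p 0.000271). Gabrg1 rose by 0.55, and Gabrd was detected on 0 of 3 arrays at day 5 and on 1 at day 9, and its measured means of 6.23 and 6.68 lay near the detection floor.

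Among 30 potassium channel genes, 5 rose and 1 fell, beside 9.45% and 13.1% of all probes on all arrays. Without replicate b, 5 of 29 rose and 1 fell, and 4 rises and 1 fall were called in both fits. Without day 9 replicate a, 12 rose. Kcnh3 went from 9.20, 9.42 and 9.47 to 10.14, 10.26 and 10.30, a rise of 0.87 (adjusted p 9.44e-05). Kcnd2, a channel of the A-type current, fell by 0.82, while Kcnip1 and Kcnip2, which bind such channels, rose by 0.50 and 0.51. Of 20 sodium, calcium and HCN channel genes, 3 fell and 0 rose, near the 13.1% of all probes called lower, and 4 fell and 2 rose without replicate b. Among the falls were Scn3a, the sodium channel of embryonic neurons (-0.75), and Cacnb1 (-0.34). Among 23 transporters, 9 rose and 2 fell, and 11 and 1 without replicate b. Besides Slc1a3, Slc7a10, a carrier of small neutral amino acids, rose by 0.81 (adjusted p 1.35e-05). Slc6a6, the taurine transporter, fell by 0.89. Slc12a5, the chloride exporter of mature neurons, was at 8.69, 8.44 and 8.56 and then at 8.93, 8.02 and 8.78. It was not called (0.02) on all arrays and was called without replicate b (0.32, adjusted p 0.0453).

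**Figure D3:**
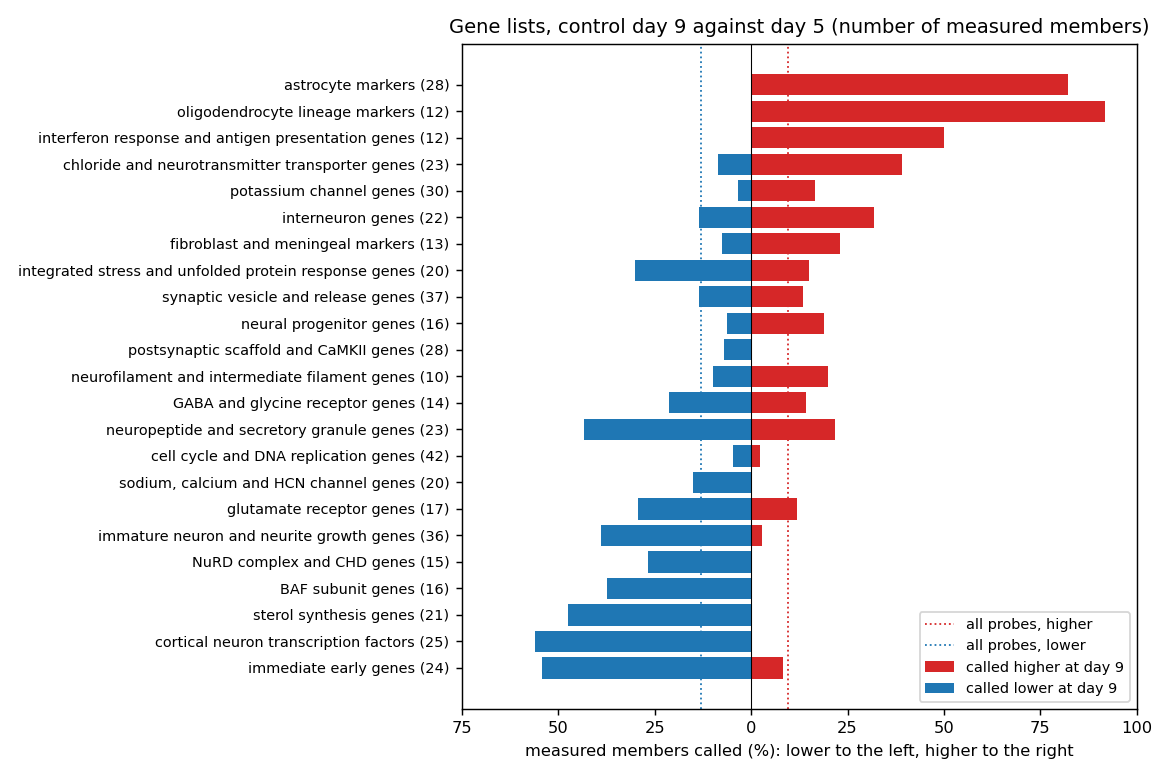
Share of the measured members of each gene list that were called lower (to the left) or higher (to the right) at day 9 than at day 5, for the lists with at least 10 measured members, ordered by median change. Dotted lines mark the share of all probes called (9.45% higher and 13.1% lower), and the number in brackets is that of measured members, such as 28 for the astrocyte markers.

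Enzymes of sterol synthesis were lower at day 9 in part. Of 21 measured, 10 fell, 0 rose and 11 were not called, beside 13.1% of all probes called lower and 9.45% higher. The median change of the 21 was -0.33. Without replicate b, 8 fell, 7 of them the same genes, and 6 fell without day 5 replicate b. In a fit of the 6 arrays alone 0 fell. Idi1, an isomerase of the isoprenoid steps, was at 11.66, 11.64 and 10.85 and then at 10.60, 10.74 and 10.49 and fell by 0.77 (adjusted p 0.00305). Hsd17b7 fell by 0.70 and Dhcr7, the last reductase of the pathway, by 0.58. Hmgcs1 was not called in either fit (1.25 and 0.14). The core of the sterol response element, TCACCCCAC, was in 0 of the 7 promoters available for the enzymes that fell and in 0.409% of all promoters.

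Genes of the integrated stress and unfolded protein responses moved both ways. Of 20 measured, 6 fell and 3 rose (beside 13.1% and 9.45% of all probes), and 5 and 4 without replicate b. Atf4, the factor that drives the response, was at 11.13, 11.16 and 10.93 and then at 10.46, 9.92 and 10.38 and fell by 0.82 (adjusted p 0.000185). Asns (asparagine synthetase) fell by 1.08. Phgdh, the first enzyme of serine synthesis, which astrocytes express strongly, rose by 0.97. Hmox1 (heme oxygenase) rose by 1.19, and Ddit4, an inhibitor of mTOR signalling, by 0.59. Of 12 genes of the interferon response and antigen presentation that were measured, 6 rose and 0 fell in either fit, with a median change of 0.33. B2m, the light chain of MHC class I, was at 11.18, 10.99 and 10.68 and then at 12.18, 12.61 and 12.30 and rose by 1.42 (adjusted p 4.94e-06). Irf1 rose by 0.67. Of 25 genes of this list with a probe, 13 were detected on none of the 6 arrays, among them Ifit1, Isg15 and Mx1.

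Genes of the cell cycle and DNA replication showed few changes. Of 42 measured, 1 rose, 2 fell and 39 were not called, with a median change of -0.09. Without replicate b, 3 rose and 3 fell. Mki67, a marker of dividing cells, was at 6.71, 7.12 and 7.03 and then at 6.80, 7.40 and 6.93 and was not called (0.09). Pcna, the clamp of DNA polymerases, was not called either (0.15). The 2 that fell were Mcm4 (-0.39) and Lig1 (-0.34, and -0.25 without replicate b, adjusted p 0.126), and Ccnb2 rose by 0.35. Of 16 neural progenitor genes, 3 rose and 1 fell (beside 9.45% and 13.1% of all probes), and 3 and 2 without replicate b. Sox2, a factor of progenitors and astrocytes, rose by 0.65, and Hes5 and Hes1, targets of Notch, by 0.97 and 0.45. Id1 fell by 0.90, and Nes (nestin) was not called (-0.01).

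CHD5 belongs to the family of CHD3 and CHD4, the ATPases of the NuRD complex. No probe was annotated to Chd5. Chd3 was at 8.69, 8.40 and 8.42 at day 5 and at 8.02, 7.58 and 7.68 at day 9 and fell by 0.74 (SE 0.12, adjusted p 0.00026). Chd4 was at 10.76, 11.03 and 10.86 and then at 10.99, 11.04 and 11.09 and was not called (0.16). Of 15 genes of the complex and of CHD proteins, 4 fell and 0 rose in both fits, beside 13.1% and 9.45% of all probes on all arrays. The others that fell were Gatad2b (-0.67), Hdac2 (-0.64) and Gatad2a (-0.45). Of 16 subunits of the BAF complex, another remodeler, 6 fell and 0 rose, and 5 and 1 without replicate b. Dpf1, a subunit of neurons, was at 9.78, 9.84 and 10.10 and then at 9.45, 8.61 and 9.20 and fell by 0.82 (adjusted p 0.00173). Actl6b, also of neurons, fell by 0.50, and by 0.31 without replicate b. Arid1a (-0.65) and Smarcb1 (-0.39) fell and were not called without replicate b (adjusted p 0.0754 and 0.0515).

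Other genes that the study follows in CHD5-depleted neurons were also compared between these days in the control cultures. Ampd3, an AMP deaminase, was at 7.20, 7.14 and 7.08 and then at 8.12, 7.42 and 7.91 and rose by 0.68 (adjusted p 0.00122). App (-0.05), L1cam (-0.18), Maoa (0.02), Nefm (-0.22), Dicer1 (-0.18), Kmt5c (-0.12), Fmr1 (-0.38) and Suv39h1 (-0.54, adjusted p 0.0522) were not called in either fit.

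The cultures that had received the CHD5 shRNA virus share no array with the control cultures, and the same comparison was made in them on the same probes. There 519 probes were called higher at day 9 (4.77%) and 532 lower (4.89%). Of the 1051, 802 were also called in the control cultures, each in the same direction. These were 76.3% of the calls after CHD5 shRNA and 32.8% of those in the control cultures. Since the spread of a probe was estimated over all groups, the weak control array bore on this count too, and 2792 probes were called without it. Of the probes called in the control cultures, 94.6% changed in the same direction after CHD5 shRNA. Across the 10870 probes the changes had a Pearson r of 0.82, and 0.75 without replicate b, where probes share arrays and normalization and are not independent. Apoe rose by 3.18, Ndrg2 by 2.36, Aldoc by 1.86 and Gfap by 1.81, and 20 of the 28 astrocyte markers were called higher (median 1.16). Fos fell by 1.48, Nr4a3 by 1.42 and Bdnf by 1.17, and 9 of the 24 immediate early genes were called lower. A limma contrast that set the change in the control cultures against the change after CHD5 shRNA called 0 probes (808 at an unadjusted p under 0.05, smallest adjusted p 0.197). Without replicate b it called 69 probes (0.647%), of which 58 rose more or fell less in the control cultures.

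**Figure D4:**
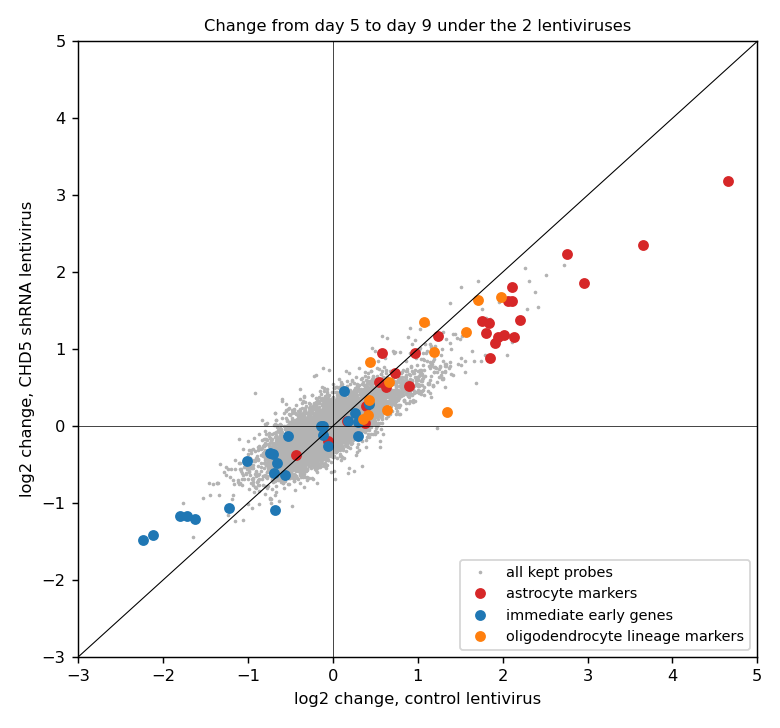
Change from day 5 to day 9 (log2) of each kept probe with the control virus (horizontal axis) and with the CHD5 shRNA virus (vertical axis), with 3 gene lists in colour and the line of equal change. Several of the astrocyte markers with the largest changes, such as Apoe (4.66 and 3.18) and Ndrg2 (3.65 and 2.36), lie below the line.

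Day 12 shows where these genes stood later. The comparison of day 12 with day 9 shares the day 9 arrays with that of day 9 with day 5, so the values are only set side by side. Between day 9 and day 12, 330 probes rose (3.04%) and 135 fell (1.24%). Without replicate b of day 9, 686 were called, 50.4% of them higher, against 71.0% on all arrays. Apoe had a mean level of 7.92, 12.58 and 13.00 on days 5, 9 and 12 (SD 0.29, 0.97 and 0.14, n = 3 each). Its change after day 9 was 0.42 and not called, and was 1.05 and called without replicate b (adjusted p 0.00061). Gfap was at 7.92, 10.03 and 9.59 on the 3 days, and its change after day 9 was not called (-0.44). S100b rose by a further 0.80, Htra1 by 1.13 and Pdgfra by 1.02. Of the 28 astrocyte markers 10 rose after day 9 and 0 fell, and of the 12 genes of the oligodendrocyte lineage 6 rose and 0 fell. Fos stayed at 7.00 and 7.09 on days 9 and 12, and Bdnf went from 7.72 to 7.24 (adjusted p 0.038). Of 23 neuropeptide genes, 7 fell after day 9. The largest of these falls as measured was that of Cort, from 9.35 to 6.58 (-2.78, adjusted p 2.66e-10). Its day 12 mean lay below the detection floor of those arrays (6.68 to 6.69), so the size of the fall is uncertain. Col1a2 fell by 1.39 and Lox by 1.30, and 5 of the 13 fibroblast and meningeal markers fell.

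**Figure D5:**
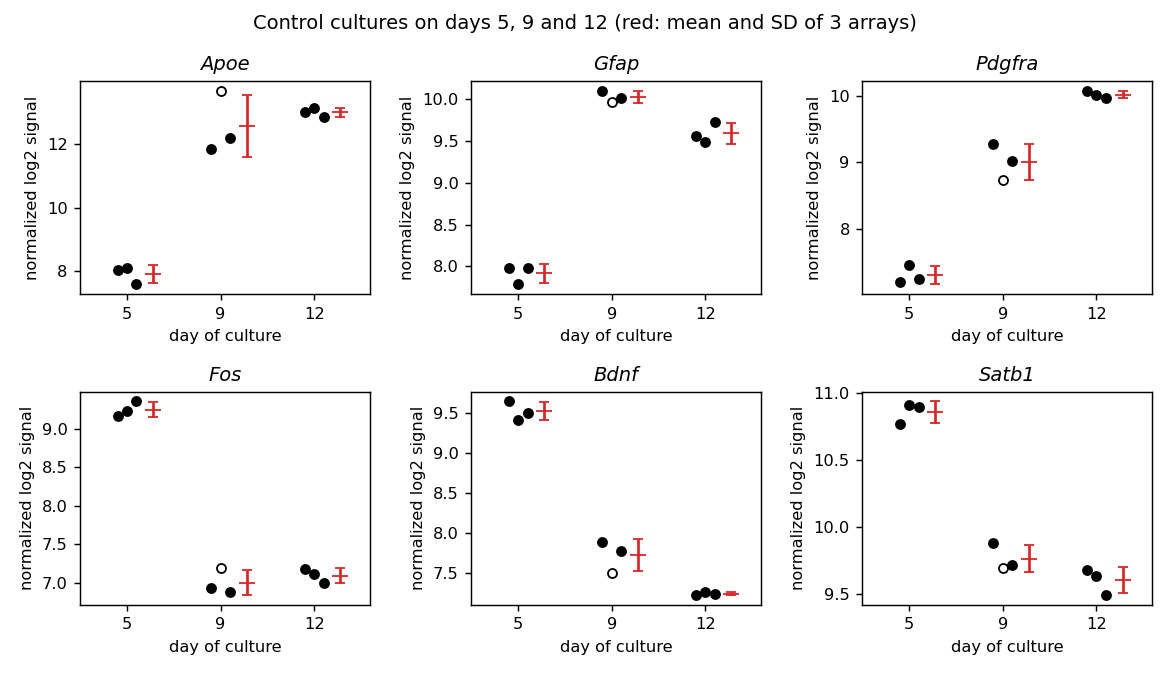
Normalized log2 signal of 6 genes in the control cultures on days 5, 9 and 12. Points are arrays a, b and c from left to right, the open point is day 9 replicate b, and the red mark and bars are the mean and SD of 3 arrays. Apoe (mean 7.92, 12.58 and 13.00) and Pdgfra were highest at day 12, and Fos (9.24, 7.00 and 7.09) was highest at day 5.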

How the data were processed

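RNA of primary rat cortical neurons was labelled with Illumina TotalPrep and hybridised to 1-colour Illumina RatRef-12 arrays. The authors read the arrays with GenomeStudio (version 1.1.1 in the file header) and deposited each probe's mean signal as a linear intensity, per the file header without normalization or subtraction of background. A detection p-value per probe is in the deposited table too, which the authors' software took from negative control beads. The table further holds second runs of 6 arrays (replicate a of each group), used only in an alternative.

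A probe entered the comparison if its detection p-value reached 0.02 or less on any of the 6 control arrays of days 5 and 9. After the study's methods, signals were log2-transformed and then Z-transformed array by array over these probes. The Z values were scaled back by 1.75, the average SD of those 6 arrays, and shifted by 8.24 so that they read as log2 signals. All 18 first-run arrays were fitted in 6 groups with limma 3.58.1 (R 4.3.3, lmFit and eBayes), and probes with a Benjamini-Hochberg adjusted p under 0.05 were called. Every fit was repeated without control day 9 replicate b. The fits were tested on simulated data.

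Of the kept probes, 10865 had a symbol, and 9696 matched a current RefSeq symbol (GRCr8). For 270 symbols with several probes, 0 had probes called in opposite directions and 86 had some called and some not. A gene list used 1 probe per symbol, that with the highest mean signal. A probe detected on no array of 1 group and on every array of the other was given as at least a fold, against the lowest detected signal on each array or its own signal where higher.

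The text names the 12 largest rises and falls among probes called in both fits, whose days did not overlap and which every array of the higher day detected. It also names, from each list, the first members measured and the called members with the largest change, the genes the study follows, and the relatives of Chd5. Other list members named were chosen after their values were seen. The lists cover cell type markers (astrocyte, oligodendrocyte, microglia, endothelial, fibroblast, neuron, progenitor), cell cycle, neurite growth, cortical and interneuron genes, synapse, receptors, channels, transporters, neuropeptides, immediate early genes, intermediate filaments, sterol synthesis, interferon, stress, NuRD and BAF. Members and lists were chosen with earlier results of these data known. Of the 10 intermediate filament genes measured, 2 rose and 1 fell, beside 9.45% and 13.1% of all probes. Promoters were searched for fixed letters on both strands. E2F and CHR motifs of the cell cycle genes are not described, since 1 promoter of a called gene was available. Alternatives covered normalization, filters, probes per symbol, samples in the fit, array weights, a replicate block, second runs, fold and Z-ratio limits, and leaving out each array. The slide of each array was not used here. Some genes are not reported here.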

Additional observations from a re-analysis of the deposited data

Results flagged for a closer look

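Without control day 9 replicate b, the change from day 5 to day 9 differed between the control and the CHD5 shRNA cultures in 69 probes (limma contrast of the changes, adjusted p under 0.05), where 0 were called on all arrays. Among the genes named here, Htra1, the secreted protease, rose by 2.68 and 1.66, a difference of 1.02 (adjusted p 0.00581). Aqp4, the water channel, rose by 2.21 and 1.16, a difference of 1.05 (adjusted p 0.0300), and Plaat3 by 2.72 and 1.88, a difference of 0.84 (adjusted p 0.0300). Entpd2 rose by 2.79 and 1.63, a difference of 1.16 (adjusted p 0.0350), and Ndrg2 by 3.42 and 2.53, a difference of 0.89 (adjusted p 0.0366). Dhcr7, the sterol reductase, changed by -0.41 and 0.17, a difference of -0.59 (adjusted p 0.0366). Grin1, the NMDA receptor subunit, changed by -0.43 and 0.22, a difference of -0.65 (adjusted p 0.0370). Apoe differed by 1.00 and was not called (adjusted p 0.0501). These differences were called only without the weak array, and the cause of that was not tested.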

How the results depend on the processing

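The 2447 calls between day 5 and day 9 were 2734 with quantile normalization, 2632 with neqc and 1872 with no detection filter. They were 1549 with median centring, 269 in a fit of the 6 arrays and 867 of the 9 control arrays, 1112 with array weights (57.2% higher, against 42.0%), 907 with a fold of at least 1.5 and 551 with the criteria of the methods (53.9% higher). Leaving out 1 array gave 1722 to 4906, the highest without day 9 replicate a. Shared calls kept their direction in each of the refits, and this was not checked for the fold limit and the criteria of the methods. Whether the letters a, b and c pair the cultures is not known. The day 5 and day 9 deviations correlated by 0.48, 0.27 and -0.25, and deviations within groups of 3 arrays cannot decide it. With a replicate block the calls were 2671 on 18 arrays and 482 on the 6 arrays (55.0% higher). The 1051 calls with CHD5 shRNA were 1639 with quantile normalization, 399 with median centring (67.9% higher, against 49.4%), 481 with no filter and 3980 with array weights, and 932 to 2792 without 1 control array, the highest without day 9 replicate b. The difference between the viruses, 0 calls, was called for 7 probes with quantile normalization, 4 with neqc and 5 with array weights, and for 0 to 69 without 1 array. The 465 calls between day 9 and day 12 were 751 with quantile normalization (58.6% higher), 637 with neqc (59.2% higher), 177 with median centring and 89 in the 9 control arrays, and 354 to 2229 without 1 array, the highest without day 9 replicate a. Of 106 called genes that the naming rule chose, 93 kept their call without day 9 replicate b, 94 with quantile normalization, 80 with median centring, 88 with neqc and 105 with the replicate block on 18 arrays, but 72 with array weights, 73 in the 9 control arrays, 60 with the block on the 6 arrays and 46 in the fit of the 6 arrays. In that fit the members called were 17 of 23 astrocyte markers, 5 of 11 oligodendrocyte lineage genes, 8 of 13 immediate early genes, 3 of 14 cortical factors, 5 of 14 neurite growth genes and 0 of 10 sterol, 5 glutamate receptor and 6 BAF genes. Ccnb2 changed by -0.0216 and Npy by -0.15 with median centring, and Gabra2 by -0.42 with neqc. The cause of these differences was not tested. Dim probes near the detection floor give smaller changes than the RNA, since no background was subtracted.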
